A study of Mus musculus with 2 samples.

Results

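EGR1 peaks at the genes of the presynaptic active zone were taken from a ChIP-seq peak list of mouse frontal cortex. The active zone genes were Bsn, Pclo, Erc1, Erc2, Rims1, Rims2, Rims3, Unc13a, Unc13b and Rimbp2, and a peak was assigned to a gene when its centre lay in the gene body or within 10 kb of one of its transcription start sites (TSSs). Of the 12014 peaks in the list, 29 lay at these 10 genes, and 9 of the 10 genes had at least 1. The genes were chosen for their known role in the synapse, with earlier results of these data known.

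The tissue came from male F1 hybrids of C57BL/6N fathers and 129SvEv mothers at 6 weeks of age, for which the labels name no treatment and no altered allele, and the cortices of several mice were pooled for each immunoprecipitation with an antibody against EGR1. The peak list merges 2 replicates. Each peak has an irreproducible discovery rate (IDR), a measure of how well the replicates support it, and the lower the IDR the better a peak ranked in both. No IDR in the list is above 0.02. It holds no read counts and no values of a single replicate, and the input sample came without a processed file. The depth behind a peak is therefore unknown, no spread between replicates could be computed and no difference was tested. The values of the active zone genes are set beside those of all genes or all peaks as a description. Dissected cortex holds neurons and glia, so a peak cannot be assigned to a cell type.

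The active zone is the patch of presynaptic membrane where synaptic vesicles dock and fuse. Bassoon and Piccolo (Bsn and Pclo) are its giant scaffold proteins, and ELKS and CAST (Erc1 and Erc2) bind the other scaffolds. The RIM proteins of Rims1 and Rims2 tether vesicles and calcium channels, and Rims3 encodes a short RIM. Munc13 proteins (Unc13a and Unc13b) prime vesicles for fusion, and RIM-binding proteins such as that of Rimbp2 link RIMs to calcium channels. EGR1 is a zinc finger transcription factor of the immediate early genes, which neurons switch on upon activity, and its zinc fingers read the 9-base motif GCGTGGGCG or GCGGGGGCG.

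The following 6 peaks are shown because they lay within 1 kb of a TSS of an active zone gene and either held the exact motif or had the lowest IDR of their gene. They are given 5′ to 3′ on the plus strand of mm10, and the capitals mark the motif, or, where a peak had no exact match, its closest words. These are the words with 1 mismatch where there are any, and for Erc1 the word with 2 mismatches nearest to the peak centre.
Unc13a, start site peak, chr8:71671747-71671857: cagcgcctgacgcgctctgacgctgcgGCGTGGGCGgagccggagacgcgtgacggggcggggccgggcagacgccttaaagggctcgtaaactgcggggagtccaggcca
Unc13a, first intron peak, chr8:71671080-71671331: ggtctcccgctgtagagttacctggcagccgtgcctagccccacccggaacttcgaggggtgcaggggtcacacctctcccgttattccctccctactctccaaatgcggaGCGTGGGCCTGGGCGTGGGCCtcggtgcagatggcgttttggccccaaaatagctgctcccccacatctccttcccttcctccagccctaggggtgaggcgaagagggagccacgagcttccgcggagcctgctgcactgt
Rims2, first intron peak, chr15:39198739-39199002: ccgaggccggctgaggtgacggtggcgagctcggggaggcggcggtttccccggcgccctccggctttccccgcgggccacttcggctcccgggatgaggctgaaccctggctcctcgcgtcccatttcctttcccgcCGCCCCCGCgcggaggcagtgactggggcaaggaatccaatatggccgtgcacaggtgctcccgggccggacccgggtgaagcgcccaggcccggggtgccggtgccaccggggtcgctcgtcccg
Rims1, start site peak, chr1:22806243-22806399: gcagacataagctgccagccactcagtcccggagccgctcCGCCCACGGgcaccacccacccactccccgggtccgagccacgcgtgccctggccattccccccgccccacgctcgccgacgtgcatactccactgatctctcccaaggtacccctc
Unc13b, start site peak, chr4:43058655-43058916: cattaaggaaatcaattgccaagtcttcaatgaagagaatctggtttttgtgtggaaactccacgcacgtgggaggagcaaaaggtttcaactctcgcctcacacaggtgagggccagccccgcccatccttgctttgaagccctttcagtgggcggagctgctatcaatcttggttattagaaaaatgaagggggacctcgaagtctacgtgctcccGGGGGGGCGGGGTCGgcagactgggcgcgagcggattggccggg
Erc1, start site peak, chr6:119848298-119848547: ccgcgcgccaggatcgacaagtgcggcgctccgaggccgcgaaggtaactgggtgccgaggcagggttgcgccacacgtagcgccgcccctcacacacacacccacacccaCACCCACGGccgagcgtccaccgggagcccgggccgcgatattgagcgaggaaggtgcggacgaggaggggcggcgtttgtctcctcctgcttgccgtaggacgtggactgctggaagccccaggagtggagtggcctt

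The Unc13a start site peak held the word GCGTGGGCG on the plus strand, 21 bp upstream of the TSS and 24 bp from the peak centre. The capitals of the other Unc13a peak are 3 overlapping words with 1 mismatch each, GCGTGGGCC, GCCTGGGCG and again GCGTGGGCC, and they lie 2 to 10 bp from the peak centre. In the Rims2 peak the motif GCGGGGGCG is read on the minus strand, 11 bp from the peak centre and 518 bp downstream of the TSS. The Rims1 peak had CCGTGGGCG on the minus strand, which for this gene is the strand of transcription, 34 bp from the peak centre. The closest words of the Unc13b peak, GGGGGGGCG and GCGGGGTCG, overlap each other and lie 92 and 98 bp from the centre, near the edge of the peak. The Erc1 peak had no word closer than the 2 mismatches of CCGTGGGTG, 9 bp from its centre.

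A peak was present at 9 of the 10 active zone genes (90%, 95% exact binomial interval 55.5% to 99.7%). Of all 21938 protein-coding genes, 39.6% had a peak by the same rule, which lies below this interval. The active zone genes ran from 41.8 kb for Rims3 to 856 kb for Erc2, and the part of gene length in this share was not tested. Among the 2492 protein-coding genes of 100 kb or more, 61.6% had a peak, which lies inside the interval of the active zone genes. Bsn, Rims3 and Unc13a are shorter than 100 kb. In the class of Rims3 and Unc13a (25 to 50 kb) 42.9% of genes had a peak, and in that of Bsn (50 to 100 kb) 51.4%, both below the interval. The median number of peaks per gene was 3 in the active zone genes, 0 in all genes and 1 in the genes of 100 kb or more. The bodies of the 10 genes span 3.07 Mb and held 23 of the 29 peaks, or 0.748 per 100 kb, beside 0.438 per 100 kb over the genome. With the regions within 10 kb of a TSS, which span 3.17 Mb together with the bodies, the 29 peaks correspond to 0.913 per 100 kb. The genome value includes the sequence between genes, so it is not a like measure for either density. The density over the bodies or flanked regions of all genes was not computed.

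**Figure D1:**
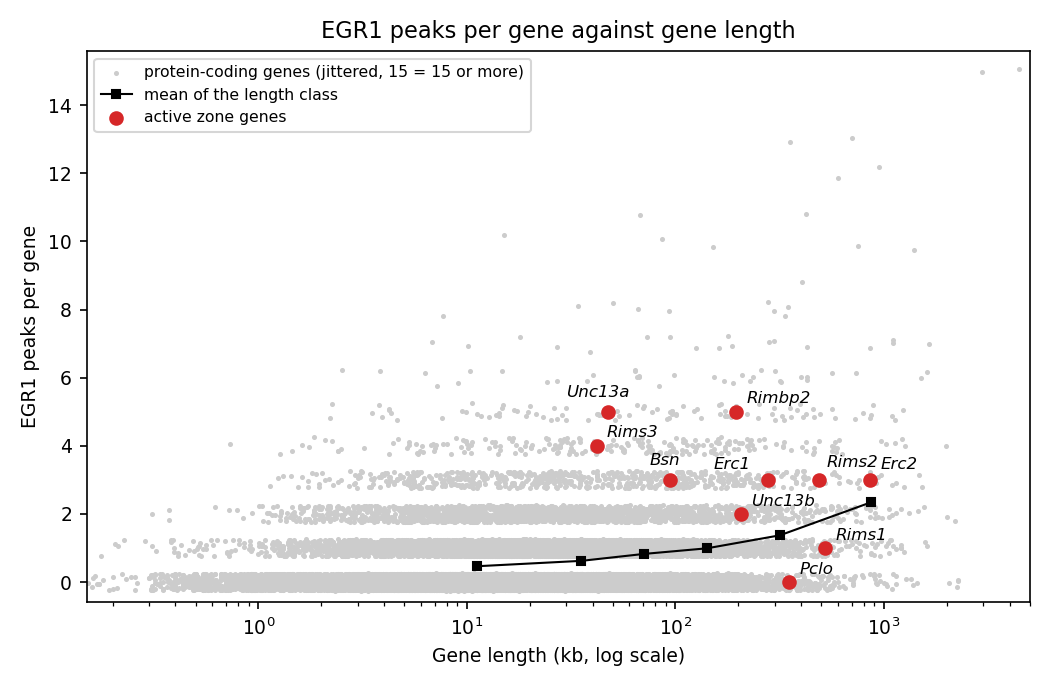
Number of EGR1 peaks per gene against gene length in kb on a log scale, for protein-coding genes (grey, jittered vertically), the mean of each length class (black squares) and the 10 active zone genes (red). Unc13a, Rims3 and Rimbp2, with 5, 4 and 5 peaks, lie above the mean of their class, as do Bsn, Erc1, Erc2, Rims2 and Unc13b. Rims1, with 1 peak, and Pclo, with 0, lie below it.

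The genes differed in this number relative to their length. Unc13a, of 47.3 kb, had 5 peaks, a number reached by 0.577% of the 3814 genes of 25 to 50 kb. Rims3, of 41.8 kb, had 4 peaks, and 3.99% of the genes of that class had 3 or more. Rimbp2, of 196 kb, had 5 peaks, beside 1.47% of the genes of 100 to 200 kb with 5 or more. Bsn, Erc1, Erc2 and Rims2 had 3 each, Unc13b had 2 and Rims1 had 1. At least 3 peaks were found at 6.84% of the genes in the class of Bsn (50 to 100 kb), 17.7% in that of Erc1 and Rims2 (200 to 500 kb) and 26.5% in that of Erc2 (over 500 kb). The counts of the active zone genes include peaks nearest to a TSS of another gene, namely all those of Bsn, 1 of Unc13a and 1 of Erc2. The shares of the length classes follow the same rule.

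**Figure D2:**
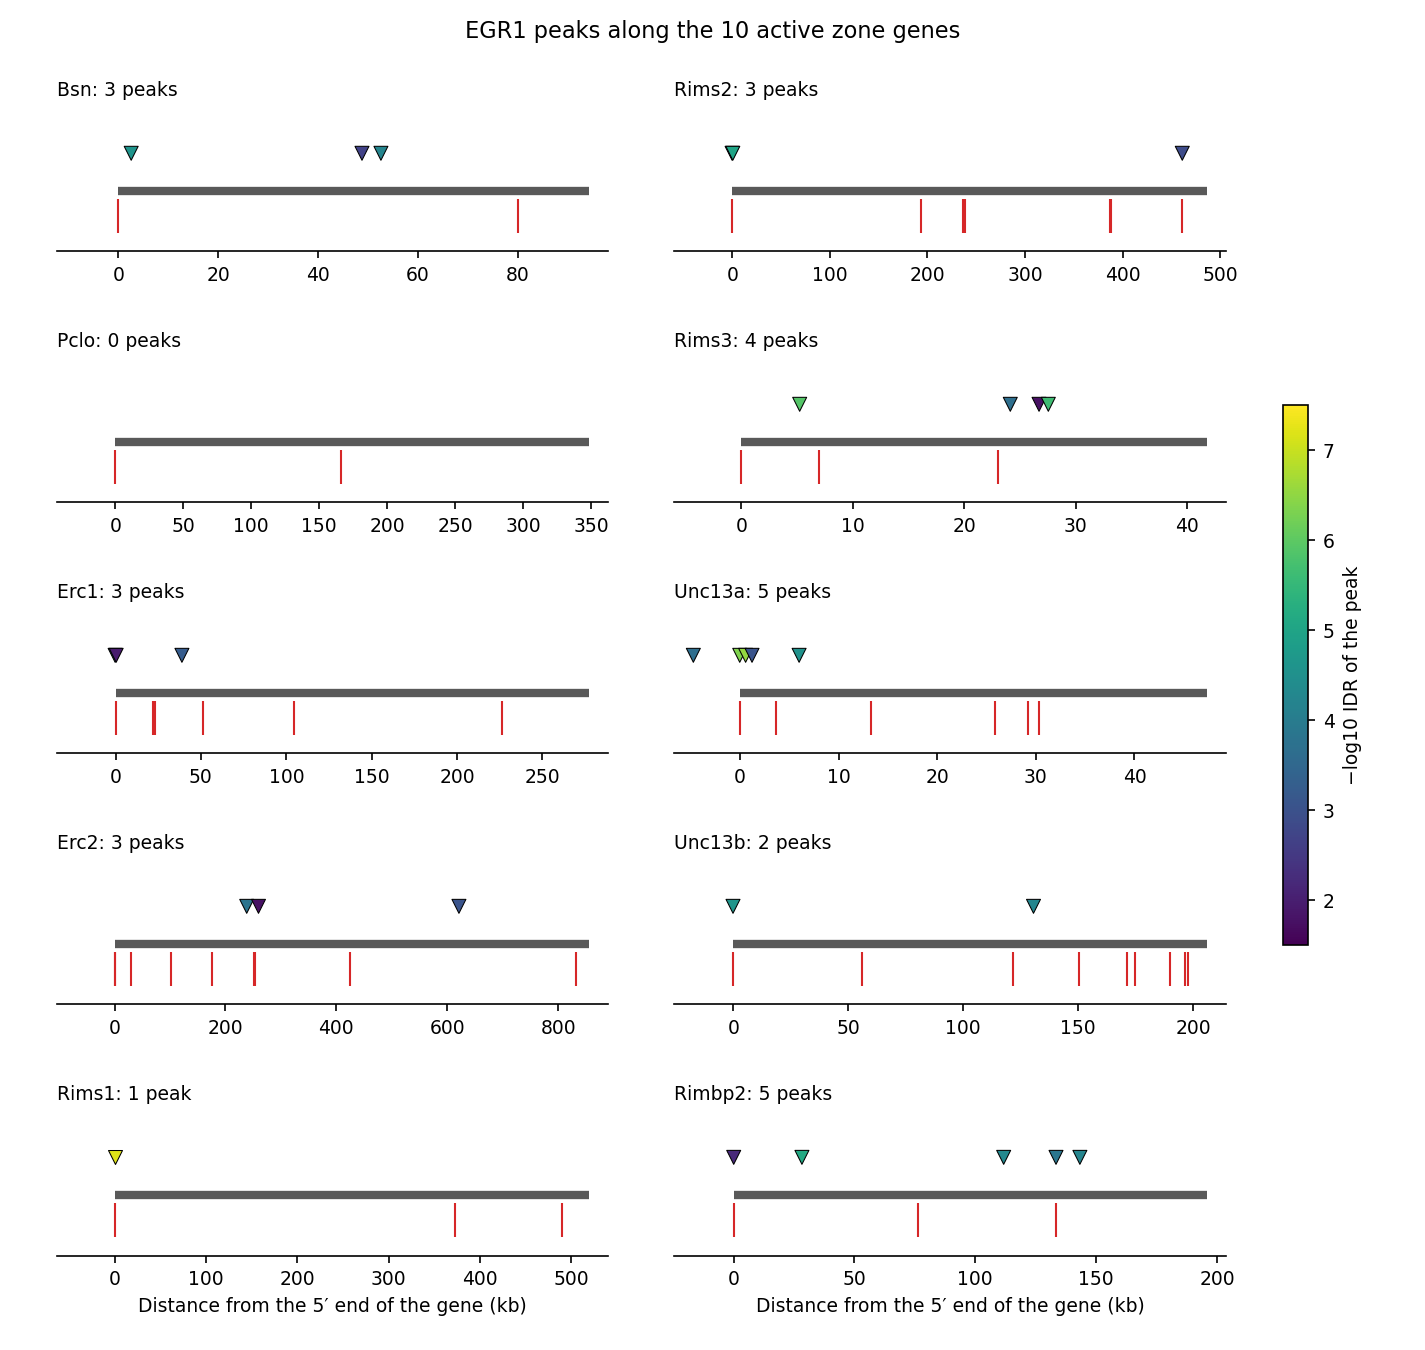
Each panel shows 1 gene from its 5′ end (0) along the direction of transcription in kb, with the gene body as a grey bar, TSSs as red ticks and EGR1 peaks as triangles coloured by −log10 IDR. Triangles overlap in the panels of Erc1 and Rims2, where 2 peaks each lie near the 5′ end, and no peak is present at Pclo.

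A peak within 1 kb of a TSS was present at 6 of the 10 genes (60%, exact interval 26.2% to 87.8%), namely Erc1, Rims1, Rims2, Unc13a, Unc13b and Rimbp2. The share was 28.1% in all protein-coding genes and 41.2% in those of 100 kb or more, both inside this interval. All 6 genes had such a peak at the 5′ end of the gene, which 24.6% of all protein-coding genes had. In the length classes that hold the 10 genes, this share ran from 29.5% (25 to 50 kb) to 35.2% (over 500 kb), inside the interval. These genes held 11 peaks within 1 kb of a TSS, with 8 centres upstream of the TSS and 3 downstream. The other 18 peaks were farther away, and 7 of them were over 10 kb from every TSS of their gene. Relative to the principal transcript of each gene, the one with the longest coding sequence, 22 peaks were centred in introns, 7 upstream of its start and none in an exon. The placement of all peaks by these rules was not computed, so the counts are a description and not a trait of these genes.

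The giant scaffold genes, Bsn and Pclo, had no peak within 1 kb of a TSS. Bsn, on chromosome 9, had 3 intronic peaks. The peak with the lowest IDR of the 3, chr9:108187715-108187964, had an IDR of 2.49e-05 and was centred 2545 bp downstream of the 5′ end in intron 1. The other peaks were at chr9:108141455-108141718 in intron 1, with an IDR of 0.00206, and at chr9:108137658-108137921 in intron 2, with an IDR of 5.84e-05. For each of the 3 peaks the nearest annotated TSS belonged to another gene, Gm37247 at 1888 bp for the first and 4930447F24Rik at 4258 and 461 bp for the others, and the last peak lay inside 4930447F24Rik. The peaks of Bsn can therefore not be told apart from peaks of these neighbours.

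Pclo, on chromosome 5, was the gene without a peak. The nearest peak lay 621 kb outside the gene, and 7.87% of the protein-coding genes (1727) had no nearer peak. Of the 768 genes of 200 to 500 kb, the length class of Pclo, 66.1% had a peak. The 5′ end of Pclo is rich in CpG dinucleotides, with 80 in the 1 kb centred on it, as many as at the 5′ end of Erc2 and close to the 85 of Rims1. Rims1 had a peak within 1 kb of its 5′ end and Erc2 had none, while Rimbp2, with 16 CpGs in this window, had one. A relation of CpG number to the presence of a peak was not tested.

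Erc1 and Erc2 encode closely related proteins, and their peaks were placed differently. Erc1, on chromosome 6, had a peak on each side of its 5′ end. The upstream peak shown above was centred 255 bp upstream of the TSS and had an IDR of 0.000133, and the peak at chr6:119847685-119847934, centred 250 bp downstream of a TSS, had an IDR of 0.0109. The remaining Erc1 peak, chr6:119809174-119809433 in intron 3, had an IDR of 0.000585 and held 0 CpGs. Erc2, on chromosome 14 and the longest of the genes, had 3 peaks deep in its introns and none within 1 kb of its 9 groups of TSSs. They were at chr14:27860738-27860987 in intron 4 (IDR 0.000157), chr14:27881968-27882231 in intron 5 (IDR 0.0166) and chr14:28243486-28243749 in intron 16 (IDR 0.000865). The last of these was 172380 bp from the nearest TSS of any gene, which belonged to Gm20242, and the peak nearest to the 5′ end of Erc2 lay 114 kb upstream of the gene and outside the rule.

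Each of the 3 RIM genes had peaks, in 3 different arrangements. Rims1, on chromosome 1, had a single peak, 327 bp upstream of its 5′ end, and none along its 520 kb. This peak had the lowest IDR of the 29, 6.09e-08, which ranked it 535 of 12014. The exact motif GCGGGGGCG occurred 12 bp upstream of a Rims1 TSS, but 233 bp outside the peak. Rims2, on chromosome 15, had peaks on both sides of its 5′ end and 1 more at an internal start. The peak at chr15:39198006-39198261 was centred 128 bp upstream of the TSS and had an IDR of 0.00797, higher than the 9.66e-06 of the motif-bearing peak 507 bp downstream. The peak at the internal start, chr15:39659386-39659635, had an IDR of 0.00131 and was centred 56 bp upstream of a start that lies 461 kb from the 5′ end and heads 2 short transcripts. The longest coding sequence from that start is 855 bp, beside 4716 bp from the 5′ end.

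Rims3, on chromosome 4, encodes a short RIM and had 4 peaks in its introns, none within 1 kb of a TSS. The peak at chr4:120859926-120860175 in intron 1 had an IDR of 1.3e-06 and was centred 1727 bp upstream of an internal TSS. In intron 3, the peaks at chr4:120878820-120879069, chr4:120881399-120881648 and chr4:120882232-120882481 had IDRs of 0.000215, 0.0181 and 2.29e-06. The first of these was centred 1075 bp downstream of a TSS, just outside the 1 kb limit. The others lay 833 bp from each other, with IDRs near the lowest and near the highest of the 29, so adjacent peaks in 1 intron differed widely in rank.

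**Figure D3:**
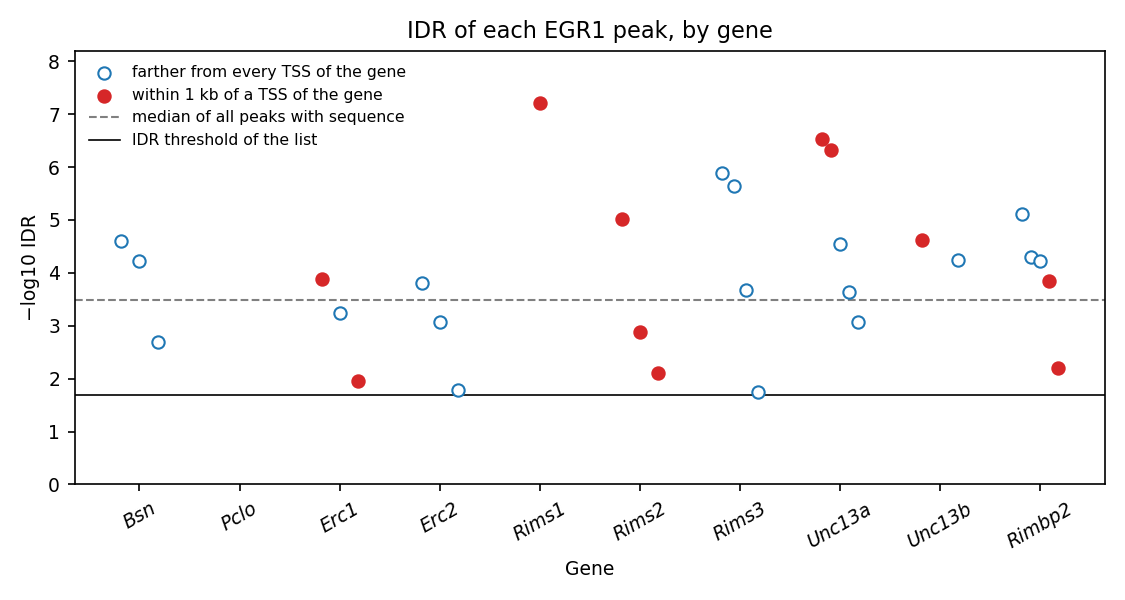
Each point is 1 EGR1 peak, plotted by gene against −log10 of its IDR, filled red when within 1 kb of a TSS of the gene and open blue when farther, with the median of all peaks dashed and the threshold of the list as a solid line. Rims1 has the lowest IDR (6.09e-08), the lowest of Unc13a and Rims3 follow, and Pclo has no point.

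The Munc13 genes both had a peak at the 5′ end. Unc13a, on chromosome 8, encodes the main priming factor of cortical excitatory synapses and had a run of peaks around its start. The peaks shown above, centred 45 bp upstream and 531 bp downstream of a TSS, had IDRs of 4.69e-07 and 2.93e-07, the lowest of the 29 after that of Rims1. Farther into intron 1 lay chr8:71670432-71670681, centred 1180 bp downstream of the TSS with an IDR of 0.000857, and in intron 3 lay chr8:71665655-71665904 with an IDR of 2.85e-05. The last of the 5 peaks, chr8:71676385-71676634, was centred 4752 bp upstream of Unc13a and had an IDR of 0.000232. It lay 43 bp from a TSS of the neighbouring gene Jak3, a cytokine receptor kinase, and inside that gene. Unc13b, on chromosome 4, had the peak shown above, centred 168 bp upstream of its TSS with an IDR of 2.4e-05, and a peak in intron 10, chr4:43189427-43189676, with an IDR of 5.66e-05, which was 8983 bp from the nearest TSS.

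Rimbp2, on chromosome 5, had 5 peaks spread over the gene. The peak at its 5′ end, chr5:128953279-128953532, was centred 43 bp upstream of a TSS and had the highest IDR of the 5, 0.00636. The lowest, 7.72e-06, was that of chr5:128925050-128925313 in intron 1, 27852 bp from the nearest TSS. The peaks in intron 2 (chr5:128841603-128841852), intron 3 (chr5:128819952-128820201) and intron 6 (chr5:128810133-128810265) had IDRs of 4.93e-05, 0.00014 and 5.9e-05. The one in intron 3 was centred 7 bp upstream of an internal start of 2 transcripts, 133 kb from the 5′ end, from which a coding sequence of 3237 bp starts, as long as that of the full-length transcript. The start of Rimbp2 was the poorest in CpGs of the 10, with 16 in the 1 kb around its 5′ end, beside 68 to 117 in the other genes.

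After TSSs within 500 bp of each other were merged, the 10 genes had 50 TSS groups, of which 40 were internal to the gene. A peak lay within 1 kb of 8 of them, namely the 5′ ends of 6 genes and the internal starts of Rims2 and Rimbp2 described above. The remaining 38 internal groups had no peak within 1 kb. Of the 29 peaks, 9 were within 2 kb of another peak of their gene, at the 5′ ends of Erc1, Rims2 and Unc13a and in intron 3 of Rims3. The matching shares over all TSS groups and all peaks were not computed, so these counts describe the 10 genes only.

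The exact motif was found in 2 of the 29 peaks (6.9%, exact interval 0.846% to 22.8%), those of Unc13a and Rims2, when both strands were searched. Of all 11938 peaks on assembled chromosomes, 16.6% held it. The 13 active zone peaks within 1 kb of any TSS, those of Jak3 and 4930447F24Rik included, held it in 2 cases (15.4%, interval 1.92% to 45.4%), beside 22.8% of all peaks within 1 kb of a TSS. The 16 peaks farther from every TSS held it in 0 cases, which allows a share of up to 20.6% by the exact interval, beside 7.91% of all such peaks. A match with at most 1 mismatch was present in 16 of the 29 peaks (55.2%) and in 69.8% of all peaks. The intervals hold the shares of all peaks in each of the comparisons of the exact motif, so a difference was not detectable with this number of peaks. Within the 10 genes and their 10 kb flanks, 3.17 Mb in all, the exact motif occurred 4 times. Both copies outside the peaks read GCGGGGGCG, and they were the Rims1 copy 12 bp from a TSS and a copy in intron 1 of Bsn, at chr9:108165283-108165291, 22424 bp from the nearest peak.

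**Figure D4:**
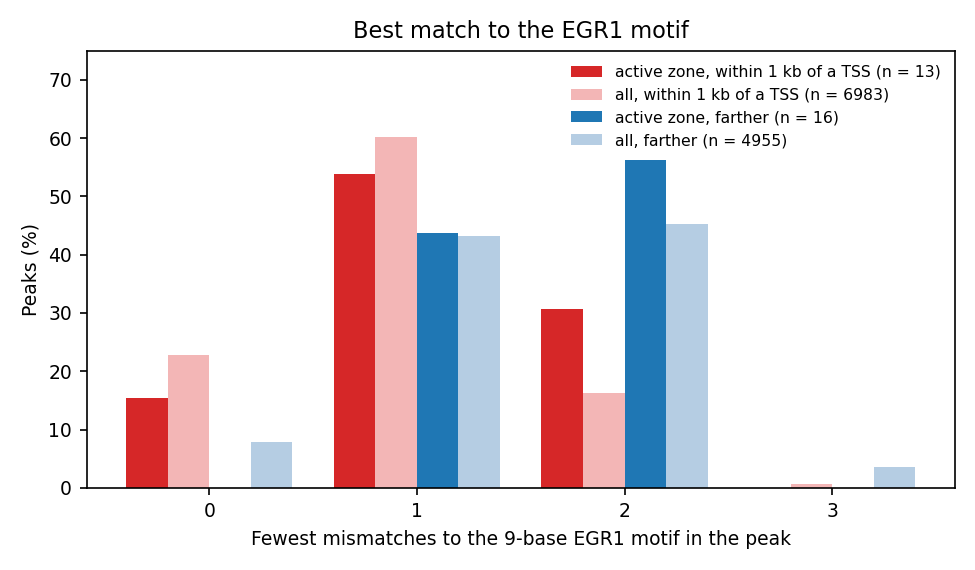
Share of peaks in percent by the fewest mismatches to the 9-base EGR1 motif found in the peak, for active zone peaks (dark) and all peaks (light), within 1 kb of any TSS (red) and farther (blue). An exact match was present in 15.4% of the active zone peaks near a TSS and in 0 of the 16 farther ones, beside 22.8% and 7.91% of all peaks.

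RefSeq promoters, from 250 bp upstream to 50 bp downstream of the gene start on GRCm38.p6, were matched by symbol for 9 of the 10 genes. Of these promoters, only that of Unc13a held the exact motif, beside 3.47% of all 32851 promoters, and the best word in each of the other 8 had 1 mismatch. The Rims1 copy of the motif, 12 bp from a GENCODE TSS, lay outside the RefSeq promoter of Rims1 (chr1:22806109-22806408). That promoter is set from a different start. Of these 9 promoters, 5 overlapped a peak, those of Erc1, Rims1, Unc13a, Unc13b and Rimbp2. The promoters of Bsn, Pclo, Erc2 and Rims3 overlapped none. Their best words, such as GAGGGGGCG in Pclo and GCGGGCGCG in Erc2, had 1 mismatch, as in the promoters of Erc1, Rims1, Unc13b and Rimbp2. The shares of all promoters that overlap a peak or hold such a word were not computed. The counts therefore only describe these 9 promoters.

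Other short motifs were counted on both strands as a description of the peaks. The AP-1 word TGANTCA was present in 3 of the 29 peaks (10.3%), in intron 2 of Bsn, intron 4 of Erc2 and intron 2 of Rimbp2, beside 6.48% of all peaks. The CRE word TGACGTCA was present in 0 of the 29, beside 1.3% of all peaks. The GC box GGGCGG, which can overlap the EGR1 motif, was present in 14 (48.3%), beside 55.8%. The E-box CACGTG was present in 2 (6.9%), beside 7.46%.

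The base composition of the peaks followed their distance from a TSS. The observed to expected CpG ratio, which is 1 when CpG is as frequent as the C and G content predicts, had a median of 0.68 (95% interval 0.53 to 0.88) in the 13 peaks within 1 kb of any TSS and 0.26 (0.12 to 0.35) in the 16 farther peaks. All peaks had medians of 0.78 and 0.30 in these classes. The GC content had medians of 68.8% and 53.3%, beside 66% and 52.8% in all peaks. Single peaks ranged from 0.00 for intron 3 of Erc1 to 1.12 for the Unc13a start site peak in CpG ratio, and from 42.3% to 76% in GC content. Over the 29 peaks together the median CpG ratio was 0.38 (0.30 to 0.61) and the median GC content 58% (53.4% to 64%), beside 0.60 and 60.4% in all peaks, and 16 of the 29 lay far from a TSS, beside 4955 of the 11938.

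**Figure D5:**
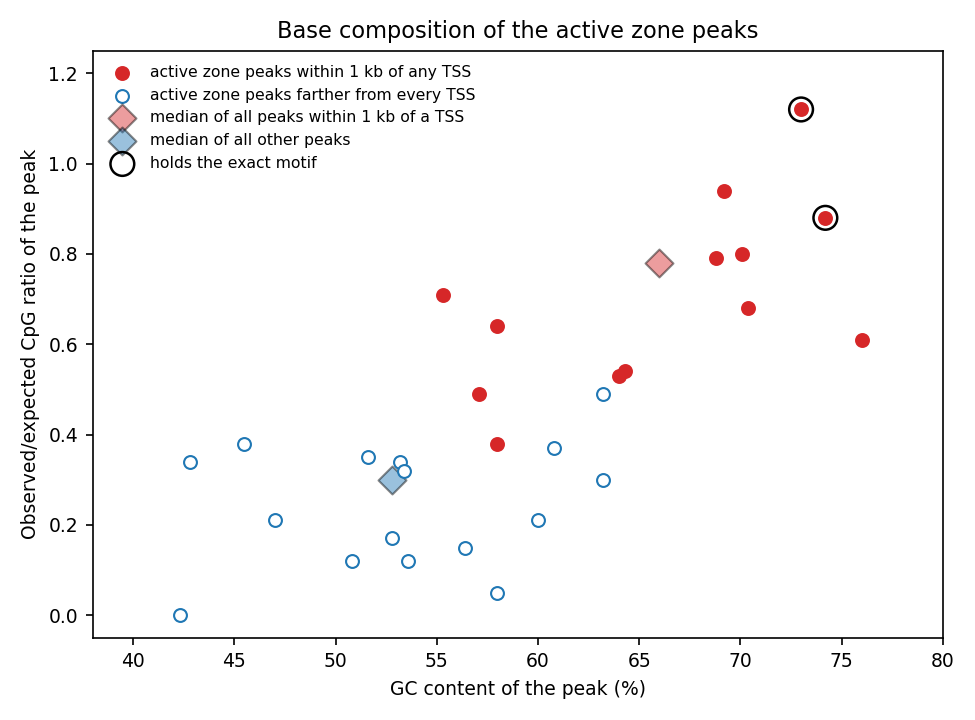
Observed to expected CpG ratio against GC content in percent for each of the 29 active zone peaks, filled red within 1 kb of any TSS and open blue when farther, with diamonds for the medians of all peaks and rings around the 2 peaks with the exact motif. The 13 peaks near a TSS reach from 0.38 to 1.12 in CpG ratio, and the 16 farther ones from 0.00 to 0.49.

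In the active zone genes, peaks near a TSS and far from one spanned overlapping ranges of IDR. The median IDR was 0.000133 (95% interval 2.49e-05 to 0.000857) over the 29 peaks and 0.000325 over all peaks. In the peaks within 1 kb of any TSS the medians were 0.000133 for the active zone genes and 7.94e-05 for all peaks. In the farther peaks they were 0.000108 (2.49e-05 to 0.000865) and 0.0012. An IDR of 0.001 or less was found in 13 of the 16 farther active zone peaks (81.2%) and in 48.1% of all farther peaks. These peaks included those of Rims3 in introns 1 and 3, with 1.3e-06 and 2.29e-06, and that of Rimbp2 in intron 1, with 7.72e-06. At the other end, 3 peaks had an IDR above 0.01, 1 each at Erc1, Erc2 and Rims3, close to the threshold of the list.

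A list of 26 further genes of the release machinery, made of relatives of the active zone genes, other scaffold genes, calcium channel subunits and genes of the fusion machinery, was set beside the active zone genes. Of these, 19 had a peak (73.1%, exact interval 52.2% to 88.4%), beside 39.6% of all protein-coding genes and 61.6% of those of 100 kb or more. A peak within 1 kb of a TSS was present at 16 (61.5%), beside 28.1% and 41.2%. The list runs from 2.69 kb (Lin7b) to 490 kb (Unc13c), and no set of like length was compared. Of the 39 distinct peaks of the 26 genes, 6 held the exact motif (15.4%), beside 16.6% of all 11938 peaks on assembled chromosomes. The lowest IDR at a TSS was that of Cacna1b, the pore subunit of the N-type calcium channel, with 5.71e-09, centred 133 bp upstream of the TSS and with 2 copies of the motif. Cplx1, whose complexin clamps and promotes fusion, followed with 6.76e-08, centred 17 bp upstream and with 1 copy. The next were Lin7a, a scaffold protein of the Lin7 family (6.89e-07), the liprin gene Ppfia1 (3.26e-06), Lin7b (1.47e-05), the adaptor gene Apba1 (2.18e-05), Cacna1a, the pore subunit of the P/Q-type channel (7.55e-05), and Ppfia3 (9.83e-05), and none of these peaks held the exact motif. No peak was present at Doc2b, Lin7c, Ppfia2, Ppfia4, Rimbp3, Unc13c and Unc13d.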

How the data were processed

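EGR1 ChIP-seq and input DNA were taken from frontal cortex of male mice at 6 weeks. Per the paper's methods, the authors aligned quality-trimmed reads to mm10 using Bowtie. SPP was run on each of the 2 replicates, and the peaks passing an IDR of 2% were merged. The submitters' processing notes name cutadapt 11.2, Bowtie2 2.2.9 and bedtools 2.26.0. The deposited columns are peak positions and IDRs, and an IDR was treated as a q-value. The file does not state how positions are counted. Starts were taken to count from 0, as in the BED format, and are printed counted from 1. No read counts were among the values, so the depth is unknown, and intervals cover the number of genes or peaks only.

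Peaks were assigned to genes of GENCODE release M21 by their centre, and sequences were read from the GRCm38.p6 assembly. The 76 peaks on scaffolds were left out of sequence values. Proportions have exact (Clopper-Pearson) 95% intervals, and medians have 95% intervals from order statistics. No test was run. The members and lists were chosen with earlier results of these data known. Every active zone gene was named with each of its peaks. A gene of the list of release machinery genes is not reported here and was left out of its counts. Of the remaining 26, the 8 with the lowest IDR within 1 kb of a TSS were given values and those without a peak were named. Another gene was named where its TSS was nearer to a peak. Sequences were printed for peaks within 1 kb of a TSS of their gene with the motif or the lowest IDR of the gene. Alternatives were other distances, IDR thresholds, transcript sets, windows and motifs, with the effect given in the closing section.

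Python 3.11.15 with numpy 2.4.6, scipy 1.17.1, pysam 0.24.0 and matplotlib 3.10.9 was used. The scripts were tested on simulated data, where each of the 4 functions for motifs, best matches, CpG ratios and peak assignment recovered 200 of 200 known answers.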

Additional observations from a re-analysis of the deposited data

How the results depend on the processing

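The 8 results were recomputed under 38 alternatives, 36 planned and 2 added after seeing the data, and 33 stayed within 1.5 times the count or within the 95% interval of the value reported. The 5 others were as follows. Allowing 1 mismatch raised the share of active zone peaks with the motif from 6.9% to 55.2%, since more words then match. The median CpG ratio was 0.68 and the median GC content 68.8% in the peaks within 1 kb of a TSS alone, and they were 0.26 and 53.3% in those more than 1 kb from every TSS. The number of active zone peaks ranged from 22 at an IDR of 0.001 or less to 40 with 50 kb in place of 10 kb. The number of genes with a peak was 9 or 8, and with only 10 genes it could not have risen past 1.5 times the count. It was 8 in gene bodies alone, where Rims1 lost its only peak, and 8 without the 5 peaks nearest to a TSS of another gene (the added alternative, with 24 peaks), where Bsn lost its 3. At an IDR of 0.001 or less Pclo was still the only active zone gene without a peak, while the share of all protein-coding genes with one fell to 29%. The genes with a peak within 1 kb of a TSS were 6, or 7 with 2 kb.

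No replicate was left out, because the list merges them. No paired analysis was possible because the peak list has no values of single replicates and no groups were tested. The small number of genes and peaks, not a measured depth, sets the width of the intervals.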

Other observations

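The ChIP-qPCR primer pair that the study lists for Erc2 matched mm10 at a single place, chr14:26872320-26872458, an amplicon of 139 bp. It lies within the gene Dnah12, 750 kb upstream of the 5′ end of Erc2, and 22168 bp from the nearest TSS, that of Asb14. The amplicon holds 2 CpGs and no word closer than 3 mismatches to the EGR1 motif. The 3 Erc2 peaks of the list, all in introns, are thus at other positions than the amplicon, and the nearest peak of any gene lies 28596 bp from it.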
